A study of Homo sapiens with 6 samples.

Results

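The comparison described here set HaCaT keratinocytes given UVC and then white light against HaCaT keratinocytes given the same UVC without white light, with 2 libraries on each side. HaCaT is an immortalised line of human skin keratinocytes, and in every group, untreated cells included, the cells carried a photolyase from the marsupial Potorous tridactylus. This enzyme repairs cyclobutane pyrimidine dimers (CPDs) when white light drives it. The dose of UVC was 15 J/m2 at 254 nm, the cells were harvested 6 h after it, and white light lasted 2 h in the group with active photolyase. Untreated cells with inactive photolyase gave 2 further libraries, called control below, whose levels are shown as background. Light and photolyase were switched on together, and no sample used here had white light without UVC, so that their effects cannot be told apart. A gene was a member of the comparison if it reached 1 cRPKM (reads per kilobase of effective transcript length, scaled to the size of the library, as the authors deposited it) in at least 2 of the 4 libraries compared. This held for 11858 of 19493 genes with values. The second-highest value of 149 members lay between 1 and 1.1 cRPKM, and that of 147 genes just outside lay between 0.9 and 1.

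UVC joins neighbouring pyrimidines of a DNA strand, most often into CPDs, and also makes 6-4 photoproducts, which a CPD photolyase does not repair. RNA polymerase II stalls at such lesions, so that a gene is less likely to be copied to its end the longer it is, while human cells, which have no CPD photolyase of their own, remove CPDs slowly by nucleotide excision repair. Removing the dimers by light is therefore used to ask which responses to UVC pass through CPDs, and the comparison here asks which transcripts change with their removal.

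Total counts ran from 57669389 to 70005705 per library, with the 2 UVC libraries the shallowest, and mitochondrially encoded genes took 3.21 to 5.28% of them, with the UVC libraries the highest. The part of this in the results was not tested. Replicates correlated at r of 0.998 over log2 cRPKM, across genes, against 0.938 to 0.939 between UVC libraries and libraries with active photolyase. Whether the replicates were grown as separate cultures is not stated in the labels. The p-values therefore reflect how much these libraries varied, and that variation may be technical. All 9 keratinocyte markers were tested, whereas none of 7 melanocyte markers, 2 of 9 fibroblast markers and 3 of 11 immune cell markers reached the minimum. Summed melanocyte markers stayed between 1.35 and 2.25 scaled cRPKM in all 6 libraries, and TYR was at 0 in each. Of the immune markers, PTPRC stayed at or below 0.0452. Of 4 endothelial markers only CDH5 was tested, at 0.55 and 0.532 after UVC, 2.69 and 2.94 with active photolyase and 4.31 and 4.303 in control, while KDR and TEK stayed below 0.1. The summed immune markers, mostly CD74 and CD68, ran from 133 to 199. Their part in the results was not tested. Levels are given here as scaled cRPKM, the deposited value divided by the TMM (trimmed mean of M values) factor of its library, and a log2 fold change is followed by its standard error (SE).

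Most transcripts differed between UVC alone and UVC with active photolyase. By edgeR's quasi-likelihood test at a Benjamini-Hochberg adjusted p under 0.05, 4651 genes were higher than after UVC alone (39.2% of those tested) and 4728 were lower (39.9%), so that 79.1% were called. How the calls divided depended on scaling. TMM factors put the median log2 fold change at -0.04, and library totals put it at -0.35, a shift of -0.31, with 3303 genes then higher and 6933 lower. Calls that held under both scalings were 3303 higher (27.9%) and 4728 lower (39.9%). Under both scalings 1084 genes were at least 2-fold higher (9.14%) and 163 at least 2-fold lower (1.37%). The count lower moved with scaling: TMM factors alone gave 1668 higher and 163 lower, and library totals alone 1084 and 803. At 4-fold the counts under both were 269 and 5, and at 8-fold 76 and 1. RNA was measured in bulk, and fewer cells of a kind and less RNA per cell cannot be told apart.

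**Figure D1:**
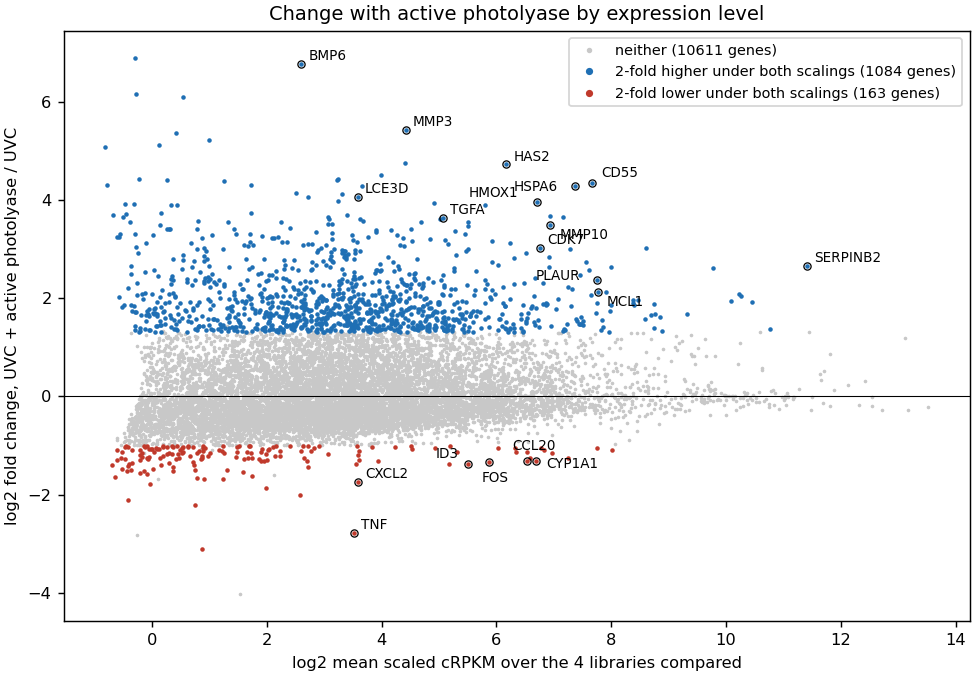
Change with active photolyase against expression level. The x axis gives the log2 mean scaled cRPKM over the 4 libraries compared and the y axis the log2 fold change of UVC with active photolyase over UVC, with 1 point per gene. Blue points are the 1084 genes at least 2-fold higher under both scalings and red points the 163 at least 2-fold lower. The rises reach further from 0 than most of the falls, and many of the falls lie at low levels.

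Genes with the 2-fold rises had been low after UVC. Their median level was 3.88 scaled cRPKM after UVC and 15.7 with active photolyase, beside 16.6 in control. The 163 genes with 2-fold falls were weakly expressed, with medians of 2.74, 1.16 and 0.854 in the same order. The more highly expressed of them included the chemokine genes CCL20 and CXCL3, FOS and CYP1A1, described next. Since the UVC libraries enter both the choice of genes and these medians, the medians are a description. The minimum of 1 cRPKM could be met by the 2 UVC libraries alone. For the genes with 2-fold falls, the lower quartile with active photolyase was 0.651. Some falls may thus be members only through UVC, and some rises only through active photolyase. This limit also bears on their counts, spans and promoter shares.

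The largest rise among genes that reached a mean of 5 cRPKM in the higher of both groups was in BMP6, which encodes a bone morphogenetic protein of epidermis. BMP6 stood at 0.1099 and 0.1098 scaled cRPKM in the UVC libraries and at 11.6 and 12.4 with active photolyase, against 7.43 and 8.402 in control, a log2 fold change over UVC of 6.77 ± 0.13 (SE). MMP3, the gene of the matrix protease stromelysin-1, went from 0.998 and 0.937 to 42.9 and 40.6 (5.43 ± 0.08), while control libraries held 6.29 and 6.84. HAS2, the gene of a hyaluronan synthase, went from 4.84 and 5.69 to 129 and 149 (4.72 ± 0.09), overlapping control at 140.2 and 146. In each of these genes both libraries with active photolyase lay above both UVC libraries, which was a condition of their choice. Of all genes tested 43.6% met it, while 47% had both below. CD55, whose product shields cells from complement, went from 18.1 and 19.96 to 381 and 393 (4.35 ± 0.07), and control held 370.04 and 406. The decoy receptor gene IL13RA2 went from 1.36 and 1.301 to 30.5 and 30.4 (4.51 ± 0.08), beside 27.7 and 30.6 in control.

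The other 10 of the 15 largest rises lay between 4.05 and 4.75 on the log2 scale. They were KPNA7 (an importin), the BMP antagonist gene GREM1, GPAT3 (glycerolipid synthesis), the protease gene CAPN14, HSPA6 (an inducible HSP70), the desmosomal cadherin gene DSG4, the glucose transporter gene SLC5A1, PGBD5, LCE3D (cornified envelope) and the scaffold gene AKAP12. The highest adjusted p among the 15 was 3.2e-11 (edgeR). Some of the 15 returned to about the level of control and others passed it or stayed short of it. PGBD5 stood at 18.3 and 19.2 with active photolyase against 38.2 and 38.3 in control, and AKAP12 at 13.3 and 11.6 against 18.5 and 20.6. GREM1 stood at 17.2 and 18.8 against 3.26 and 3.93, DSG4 at 23.7 and 24.1 against 10.96 and 10.4, and LCE3D at 21.8 and 23.4 against 3.95 and 4.201. The largest rises of all, at lower levels, included ENSG00000250038, a gene with no symbol, at 6.88 ± 0.59, and MEOX1, a homeobox factor, at 5.36 ± 0.18.

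Falls were smaller. TNF, the gene of the cytokine tumour necrosis factor, stood at 21.2 and 18.8 scaled cRPKM in the UVC libraries and at 3.07 and 2.77 with active photolyase, a log2 fold change of -2.78 ± 0.10, and control held 0.734 and 0.963. ICAM5, an adhesion molecule gene, went from 10.5 and 8.56 to 2.39 and 2.32 (-2.01 ± 0.10), within the range of control at 2.304 and 2.65. FOS, a subunit of the factor AP-1, went from 87.6 and 79.6 to 34.3 and 31.7 (-1.34 ± 0.06), which was still above control at 13.9 and 13.8. CYP1A1, a target of the aryl hydrocarbon receptor, went from 154 and 139 to 63.8 and 54.8 (-1.31 ± 0.07), just above control at 53.5 and 51.9. ID3, which restrains helix-loop-helix factors, went from 66.4 and 64.2 to 26.3 and 24.2 (-1.37 ± 0.07), below control at 37.7 and 33.4. The other 10 of the 15 largest falls lay between -1.31 and -1.87: ZNG1C, CXCL2, ENSG00000198366, ZBED10P, MSC, CXCL3, RRAD, CCL20, IFNB1 and TMEM37. Among these 15 the highest adjusted p was 6.25e-06 (edgeR). ZNG1C has near-identical copies and ZBED10P is a pseudogene, so reads may be divided between genes there. The 1 gene called 8-fold lower under both scalings was NPIPB6, of another family of near-identical copies, which went from 3.02 and 3.67 to 0 and 0.648 (-3.10 ± 1.12, adjusted p = 0.0214, edgeR). The fit put NUTM2G lower still, at -4.02 ± 2.08, but did not call it (adjusted p = 0.0938, edgeR), and both genes were picked after their values were seen.

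**Figure D2:**
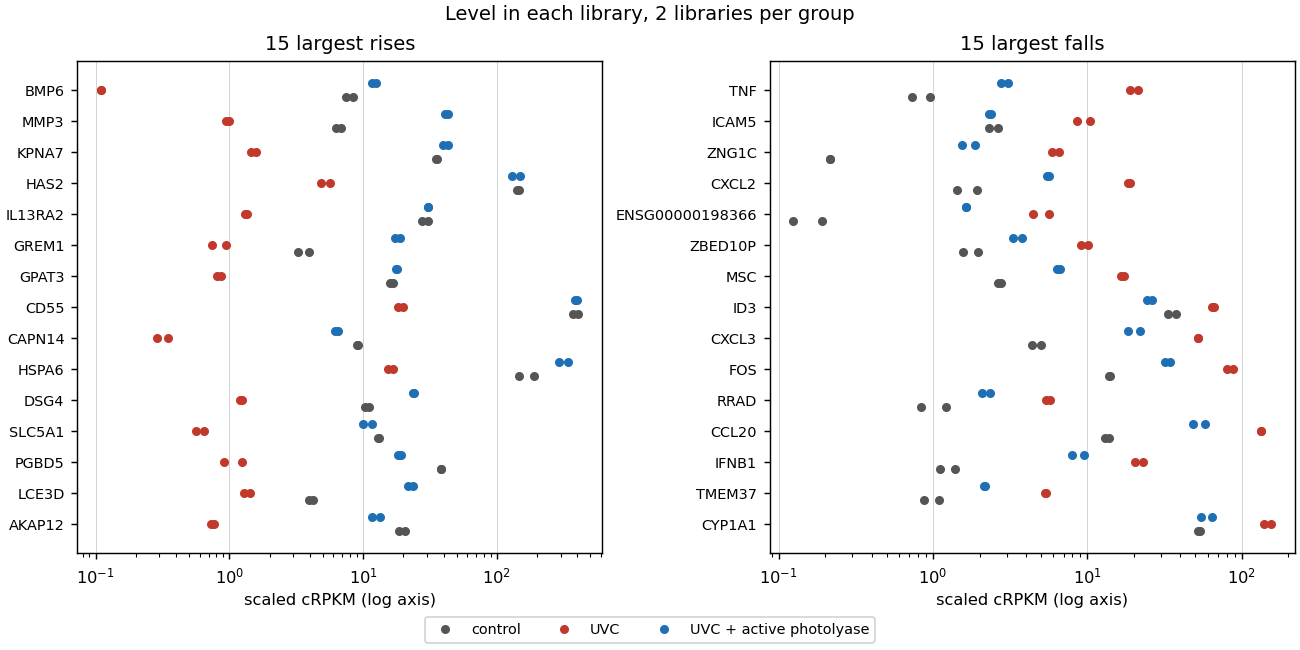
Levels of the 15 largest rises and the 15 largest falls in each library. The x axes give scaled cRPKM on a log axis, and each gene has 2 points per group, for control (grey), UVC (red) and UVC with active photolyase (blue). Blue points lie to the right of red ones on the left panel and to the left of them on the right panel, which is how the genes were chosen, and their place against control differs from gene to gene.

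Gene lists were described by their counts and medians beside those of all genes tested (39.2% higher, 39.9% lower, median log2 fold change -0.04). The lists that moved up most were those of ERK feedback, heat shock, cell junctions, the unfolded protein response, keratinocyte differentiation and matrix proteases, and cytokines and chemokines were among those with a median below that of all genes.

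**Figure D3:**
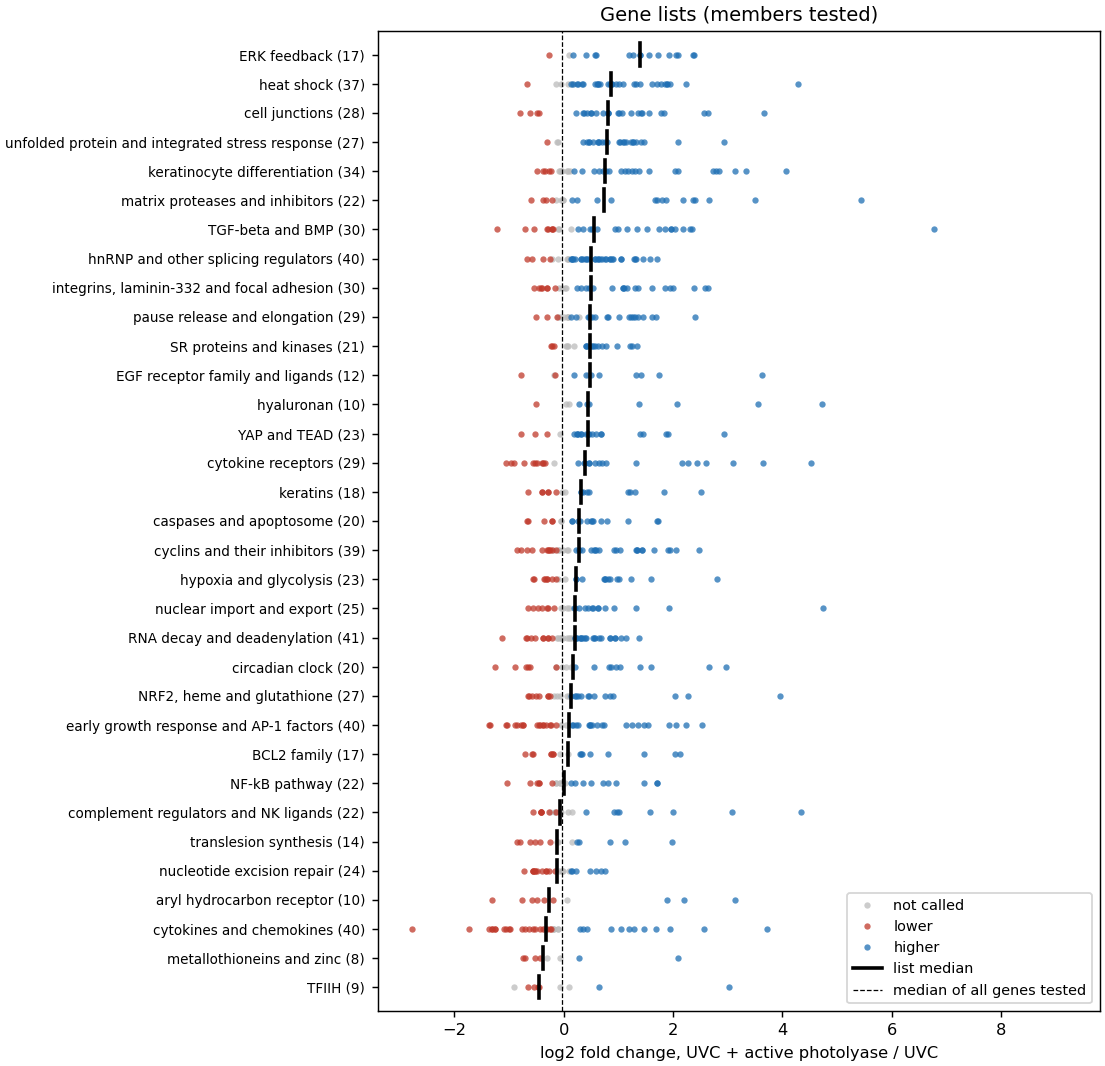
Log2 fold change of every tested member of 33 of the 34 gene lists, UVC with active photolyase over UVC. Each row is a list with its number of tested members, points are genes coloured by the edgeR call with TMM factors, black bars are list medians, and the dashed line is the median of all genes tested. Medians run from -0.44 for TFIIH to 1.39 for ERK feedback.

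Most repair genes, like most genes tested, changed by less than 2-fold, with CDK7 and UBE2B among the exceptions below. Of 24 nucleotide excision repair genes tested, 7 were higher and 12 lower, and their median was -0.12. None changed by 2-fold under both scalings, beside 9.14% of all genes higher and 1.37% lower by that measure. The damage sensor DDB2 went from 45.1 and 46.4 scaled cRPKM after UVC to 34.97 and 34.5 (-0.40 ± 0.06), above control at 29.7 and 25.9, and XPC, its partner in lesion recognition, went from 6.65 and 6.14 to 5.32 and 5.28 (-0.27 ± 0.07). POLD1, LIG1 and RPA2, for synthesis, ligation and single-strand binding, fell by 0.73, 0.56 and 0.56. ERCC1, part of the nuclease that cuts 5′ of the lesion, rose from 35.1 and 34.6 to 60.3 and 57.9 (0.76 ± 0.05), the largest rise of the list. In TFIIH, the helicase and kinase complex of both repair and initiation, 4 of 9 members fell, and CDK7, its kinase, rose from 21.8 and 25.6 to 199.7 and 186 (3.03 ± 0.07), with 315 and 307 in control. Of 14 translesion synthesis genes, 5 rose and 6 fell. UBE2B, the enzyme that conjugates ubiquitin to PCNA together with RAD18, rose by 1.97 ± 0.06, from 10.3 and 11.3 to 44.2 and 40.8, and USP1, which takes that ubiquitin off, by 1.12 ± 0.07.

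Genes for release of paused RNA polymerase II rose more often, with 19 of 29 higher (16 under both scalings) and 3 lower. CDK9, the kinase of P-TEFb, rose by 0.48 ± 0.06, and its cyclin partner CCNT1 by 1.62 ± 0.05, from 4.02 and 4.05 to 12.3 and 12.5 scaled cRPKM. The scaffold AFF4 and the elongation factor ELL2 of the super elongation complex rose by 1.69 ± 0.07 and 2.40 ± 0.05, the latter from 3.62 and 3.65 to 19.2 and 19.1, still below control at 23.2 and 23.5. CDK12, a kinase of elongating polymerase, rose by 1.44 ± 0.06. NELFB, a subunit of the pausing factor NELF, fell by 0.50. HEXIM1, which holds P-TEFb inactive, was not called (means of 29.3 after UVC and 27.1 with active photolyase, against 15.6 in control).

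Genes of growth arrest went both ways. CDKN1A, the gene of the cell cycle inhibitor p21, went from 267 and 270.2 scaled cRPKM after UVC to 688 and 665 (1.33 ± 0.05), and control held 695 and 673, so that active photolyase and control overlapped. MDM2, a ubiquitin ligase gene, went from 3.74 and 4.06 to 8.22 and 8.22 (1.07 ± 0.06). PPM1D, SESN2 and TNFRSF10A, for a phosphatase, a stress sensor and a death receptor, rose by 2.04 ± 0.09, 2.09 ± 0.06 and 2.04 ± 0.05. The antiproliferative gene BTG2 and the cyclin gene CCNG1 fell by 0.60 and 0.67.

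Apoptosis genes went both ways. In the BCL2 family 8 of 17 members rose (5 under both scalings) and 7 fell, shares near those of all genes, with a median of 0.08 (-0.23 with library totals). MCL1, an inhibitor of apoptosis with a short-lived transcript, rose from 79.7 and 82.7 to 359.5 and 348 (2.12 ± 0.06), and control held 363 and 381. BCL2L1, which encodes the inhibitor BCL-XL, rose by 1.47 ± 0.06, and BCL2L11, which encodes the activator BIM, by 2.04 ± 0.07. BAD and BNIP3 fell by 0.58 and 0.56. Among caspases and their partners 13 of 20 rose and 5 fell, and the 6 that rose under both scalings were a share near that of all genes. CASP9, the caspase of the apoptosome, rose from 3.78 and 4.06 to 12.9 and 12.5 (1.70 ± 0.07), past control at 9.09 and 9.297, and CFLAR, which blocks death receptor signalling, rose by 1.73 ± 0.06. In the list of cyclins and their inhibitors 22 of 39 rose (18 under both scalings) and 11 fell, and the 10 members that rose 2-fold under both scalings included E2F3 (2.48 ± 0.09), the phosphatase CDC25A (2.05 ± 0.08), CCNE2 (1.65 ± 0.09) and WEE1 (1.44 ± 0.05).

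Growth factor signalling carried the highest list median. Of 17 tested genes of the ERK feedback list, most of which restrain Ras and ERK signalling, 15 rose (13 under both scalings). A 2-fold rise under both scalings held for 9 of them, and the list median was 1.39 (1.08 with library totals). The ERK phosphatase DUSP6 went from 34.9 and 32.7 scaled cRPKM after UVC to 105 and 94.9 (1.57 ± 0.06), against 105 and 103 in control. DUSP5, DUSP16 and RASA2, the latter a GTPase activator of Ras, rose by 2.09 ± 0.06, 2.36 ± 0.09 and 2.38 ± 0.09. NF1, another GTPase activator of Ras, whose gene spans 287 kb, fell by 0.28 and was the only list member called lower. Of 12 genes for EGF receptors, their ligands and the proteases that free them, 8 rose (6 under both scalings) and 2 fell. Among the ligands, TGFA rose from 4.86 and 5.101 to 61.9 and 61.7 (3.63 ± 0.06), below control at 136 and 141. EREG and EPGN rose by 1.75 ± 0.05 and 1.32 ± 0.10. Of the receptor genes, ERBB3 rose by 1.41 ± 0.06, ERBB2 fell by 0.78 and EGFR was at -0.16 ± 0.06, a call lost without UVC replicate 1 (-0.17), UVC replicate 2 (-0.15) or active photolyase replicate 1 (-0.11).

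Early growth response factors went both ways, with 20 of 40 higher (15 under both scalings) and 18 lower. The group that fell held FOS, ID3, HES1 (-1.05 ± 0.06), ID2 (-1.05 ± 0.05), JUND (-0.78 ± 0.06) and EGR1 (-0.74 ± 0.06). The group that rose held NR4A3 (2.53 ± 0.07), MXD1 (2.23 ± 0.05), KLF5 (2.06 ± 0.05), MAFK (1.93 ± 0.05) and MYC. MYC went from 118 and 116 to 331 and 351 (1.55 ± 0.05), just below control at 358 and 359.6. FOSL1, a FOS relative, rose from 395 and 362 to 814 and 842 (1.13 ± 0.06). FOS and FOSL1, which encode alternative partners of JUN, moved in opposite directions.

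Of 30 TGF-beta and BMP genes tested, 19 rose and 8 fell, and 11 rose 2-fold under both scalings. Among ligands, besides BMP6, INHBA (activin A) rose from 23.4 and 23.1 to 94.3 and 95.5 (2.03 ± 0.08), past control at 54.7 and 68.1, and TGFB2, TGFB3, BMP4 and BMP2 rose by 2.32 ± 0.11, 2.34 ± 0.12, 1.74 ± 0.09 and 1.33 ± 0.05. The ligand genes GDF15 and TGFB1 fell by 0.72 and 0.22, and BMP7 was not called. Of the inhibitors of the pathway, SKI rose by 2.19 ± 0.06, FST (follistatin) by 1.95 ± 0.05 and SMAD7 by 1.86 ± 0.07. SMAD6, the inhibitor of BMP signalling, fell by 1.22, from 6.36 and 6.698 to 2.85 and 2.76, and TGFBR2 fell by 0.31.

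Several matrix protease genes rose past control. Of 22 proteases and inhibitors tested 14 rose (12 under both scalings), 10 of them 2-fold, and 4 fell. MMP10, a stromelysin, went from 19.6 and 20.4 scaled cRPKM after UVC to 219.9 and 230.02 (3.49 ± 0.06), and control held 57.7 and 64.5. MMP1, a collagenase, went from 56.2 and 57.9 to 255 and 266 (2.19 ± 0.06), with 112 and 121 in control, and MMP9, a gelatinase, from 7.27 and 6.97 to 24.3 and 22.3 (1.71 ± 0.06), with 7.78 and 7.92. In all 4 of these genes, MMP3 included, both libraries with active photolyase lay above both control libraries. The share of all genes that lay above control in this way was not counted. MMP1 and MMP9 were picked after their values were seen. The plasminogen system did not pass control: PLAUR, the urokinase receptor gene, rose from 70.5 and 70.2 to 382 and 344 (2.37 ± 0.07) against 744 and 661, and SERPINB2, a urokinase inhibitor, from 741 and 738 to 4821 and 4528 (2.66 ± 0.06) against 9774 and 9329. MMP2 and MMP15 fell by 0.37 and 0.59.

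AP-1 sites are a known feature of several of these promoters, so the 250 bases before the transcription start were searched for TGANTCA on both strands, in the RefSeq promoters of GRCh38.p14. The letters stood in 6.6% of 27305 promoters, in 4.29% of the 9407 tested genes with a promoter, in 7.96% of 867 genes with 2-fold rises under both scalings (69 promoters) and in 2.75% of 109 with 2-fold falls. Of 22 tested members of the protease list, 12 had a promoter in this set, and MMP10, PLAUR, SERPINB2 and MMP7 held the letters. MMP3 had no promoter there and was not searched. The windows below show the match in capitals with 20 bases on each side, read in the direction of the gene. A match is a description and says nothing of binding.
MMP10 (chr11:102780669-102780715, minus strand): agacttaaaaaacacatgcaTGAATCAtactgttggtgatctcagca
PLAUR (chr19:43670329-43670375, minus strand): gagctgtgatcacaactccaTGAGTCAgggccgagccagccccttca
SERPINB2 (chr18:63887583-63887629, plus strand): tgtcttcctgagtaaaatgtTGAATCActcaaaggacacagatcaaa

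Junction and adhesion genes mostly rose. Of 28 junction genes 24 rose (20 under both scalings) and 4 fell, with a median of 0.81 (0.50 with library totals). OCLN (occludin) went from 5.15 and 5.62 to 31.1 and 32.4 (2.56 ± 0.06), against 52.5 and 52.04 in control, and the desmosomal cadherin DSG3 and E-cadherin (CDH1) rose by 2.64 ± 0.06 and 1.36 ± 0.05. DSC2, another desmosomal cadherin, went from 17.2 and 18.6 to 216 and 239 (3.67 ± 0.07), above control at 117 and 121. Of 30 integrin, laminin-332 and focal adhesion genes 19 rose and 7 fell. The kindlins FERMT1 and FERMT2, which activate integrins, rose by 2.63 ± 0.05 and 2.58 ± 0.06, and the collagen receptor subunit ITGA2 by 2.37 ± 0.07, from 17.2 and 18.7 to 90.8 and 95.03. PTK2, the gene of focal adhesion kinase, fell by 0.46. Around hyaluronan, the hyaluronidase genes CEMIP2 and CEMIP rose with HAS2, by 3.55 ± 0.07 and 2.07 ± 0.06. In the YAP and TEAD list 19 of 23 rose, 10 of them under both scalings, and the target ANKRD1 went from 1.97 and 2.03 to 14.5 and 16.04 (2.93 ± 0.12), above control at 4.68 and 6.18.

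Differentiation genes of the epidermis mostly rose. Of 34 tested 22 rose (20 under both scalings), 10 of them 2-fold, and 5 fell. SPRR3, a cornified envelope protein, went from 2.77 and 2.58 to 29.4 and 24.9 (3.34 ± 0.12) beside 20.5 and 17.5 in control, and TGM2, a crosslinking transglutaminase, from 2.33 and 2.51 to 21.7 and 20.7 (3.14 ± 0.06) beside 7.64 and 7.94. GRHL3, a factor of barrier formation, rose by 2.73 ± 0.06 and SPRR2A by 2.09 ± 0.07. LCE1C, LCE1D, LCE1E and LCE1F, picked after their values were seen, rose by 3.69 ± 0.15, 3.06 ± 0.12, 3.08 ± 0.13 and 3.97 ± 0.16. LCE and SPRR genes are close copies, so reads may be divided between them. Among 18 keratins 10 rose (6 under both scalings) and 6 fell. KRT6A, KRT6B and KRT6C, keratins of wounded epidermis and likewise close copies, rose by 1.31 ± 0.05, 1.83 ± 0.06 and 2.50 ± 0.09, and the basal keratin KRT15 fell by 0.65.

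Cytokine genes fell more often than they rose. Of 40 cytokines and chemokines tested 21 fell, 10 of them 2-fold under both scalings against 1.37% of all genes, and 12 rose. Beside TNF, the falls of 2-fold held the neutrophil chemokines CXCL1, CXCL2 and CXCL3, the chemokines CCL2 and CCL20, and the interferons IFNB1, IFNL1, IFNL2 and IFNL3. CXCL2 went from 18.2 and 18.9 scaled cRPKM after UVC to 5.63 and 5.46 (-1.74 ± 0.10), CXCL3 from 51.8 and 52.1 to 18.2 and 21.9 (-1.37 ± 0.08) and CCL20 from 132 and 132 to 57.8 and 48.2 (-1.32 ± 0.07). Controls were at 1.42 and 1.91, 4.35 and 5.04 and 12.998 and 13.9, so that each of these 3 genes lay between UVC and control with no overlap. IFNB1 behaved alike, from 23.1 and 20.4 to 9.51 and 7.93 (-1.32 ± 0.10) with 1.39 and 1.11 in control. The share of all genes that lay between UVC and control without overlap was not counted. IL6 fell by 0.98 and IL1B by 0.71. The lambda interferons are near-identical, and the value of each is uncertain. Other ligands rose: IL24, of the IL-10 family, went from 4.63 and 4.04 to 28.4 and 23.3 (2.57 ± 0.10), IL36G from 97.8 and 89.6 to 269 and 251 (1.47 ± 0.06) and IL1RN, the receptor antagonist, from 209.6 and 202 to 666 and 657 (1.68 ± 0.05).

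Receptor genes rose more often than they fell, with 17 of 29 list members higher (14 under both scalings) and 10 lower (the list also held TSLP, a ligand, which was not called). The 8 that rose 2-fold under both scalings were IL13RA2, IL1RL1, IL1R2, IL1R1, IL6R, TNFRSF21, IFNLR1 and IL22RA1. IL1RL1, the receptor of interleukin 33, went from 21.4 and 20.9 to 255 and 278 (3.65 ± 0.06) against 399 and 408 in control, and the decoy receptor IL1R2 rose by 3.10 ± 0.10. IL15RA, IL20RB and IFNGR1 fell by 0.73, 0.56 and 0.53. Within the NF-kB pathway 10 of 22 rose (7 under both scalings) and 6 fell. The subunit NFKB1 rose from 7.04 and 7.23 to 23.3 and 23.5 (1.71 ± 0.05), below control at 56.5 and 59.01, and TNFAIP3, which shuts the pathway off, rose by 1.47 ± 0.06. Another inhibitor of the pathway, NFKBIA, fell by 0.62 and the target TNFAIP2 by 1.05. Besides CD55, the immune ligands CD274 (PD-L1) and PDCD1LG2 (PD-L2) rose by 2.01 ± 0.07 and 3.07 ± 0.10, and CD47 fell by 0.57.

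**Figure D4:**
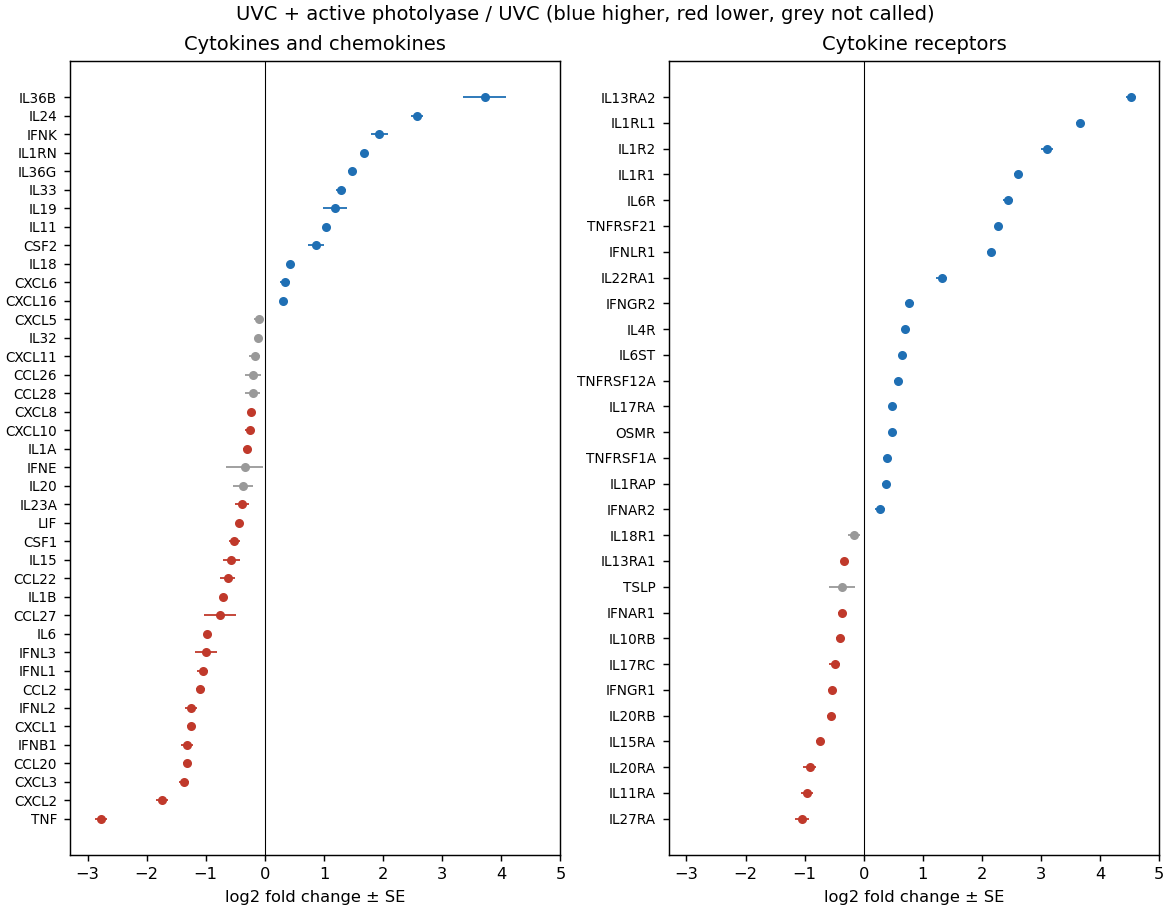
Log2 fold change with its SE for 40 cytokine and chemokine genes and 29 members of the receptor list, UVC with active photolyase over UVC. Blue points were called higher, red points lower and grey points neither, by edgeR with TMM factors. TNF lies lowest at -2.78 and IL13RA2 highest at 4.51.

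Several chemokine promoters are known to hold an element that the factor NF-kB binds, and the letters GGG, any 2 bases and TTTCC were searched on both strands of the same 250 bases. They stood in 1.73% of all promoters, in 2.08% of those of tested genes, in 1.61% of those with 2-fold rises and in 8.26% of those with 2-fold falls, which were 9 of 109 (CCL20, CXCL1, CXCL2, CXCL3, IL27RA, LTB, PLLP, RHOV and ZNF605). Of 40 cytokine and chemokine genes tested, 33 had a promoter in this set, and 8 of these held the letters. Of these 8, CXCL6 was called higher, and IL32 and CXCL5 were not called. The CXCL1, CXCL2 and CXCL3 windows are close copies of each other, and CCL20 has the element on the other strand.
CXCL1 (chr4:73869294-73869343, plus strand): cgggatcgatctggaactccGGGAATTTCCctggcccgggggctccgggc
CXCL2 (chr4:74099244-74099293, minus strand): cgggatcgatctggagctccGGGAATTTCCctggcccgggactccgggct
CXCL3 (chr4:74038739-74038788, minus strand): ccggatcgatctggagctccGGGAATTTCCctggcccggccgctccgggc
CCL20 (chr2:227813743-227813792, plus strand): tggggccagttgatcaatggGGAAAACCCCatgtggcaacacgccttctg

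Chaperone genes rose with few exceptions. Of 37 heat shock genes 32 rose (26 under both scalings), 11 of them 2-fold, and only HSF4 fell (-0.66 ± 0.09). The median was 0.86, or 0.55 with library totals. HSPA6 went from 15.4 and 16.6 scaled cRPKM after UVC to 289 and 337 (4.29 ± 0.12), above control at 147 and 190.1, and HSPA8, the constitutive HSP70, from 436 and 453 to 1651 and 1784 (1.95 ± 0.06), above control at 1437 and 1513. HSPH1, a nucleotide exchange factor, and DNAJB1, an HSP40, rose by 2.23 ± 0.06 and 1.70 ± 0.07, both to levels above control (244 and 256 against 188 and 207, and 305 and 346 against 215 and 239). HSPA1A and HSPA1B rose by 1.62 ± 0.09 and 1.89 ± 0.08, and their near-identical sequences leave the share of each uncertain. HSF1, the factor that drives the group, was not called (means of 33.7 and 32.7).

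The element HSF1 binds was searched as GAA, TTC and GAA with any 2 bases between neighbours, on both strands. It stood in 0.439% of all promoters and 0.276% of those of tested genes. Among 2-fold rises it stood in 0.231% (2 of 867) and among 2-fold falls in 0.917% (1 of 109). In the heat shock list 32 of 37 tested members had a promoter to search, and 4 of these held it (HSPA6, HSPA8, DNAJB6 and CHORDC1). HSPA6 and HSPA8 both had 2-fold rises, and the matches shown in capitals lie on the other strand. HSPA8 held 2 matches in the 250 bases, and only the match nearest the start is shown.
HSPA6 (chr1:161524446-161524498, plus strand): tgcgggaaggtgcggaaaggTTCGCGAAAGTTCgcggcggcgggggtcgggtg
HSPA8 (chr11:123062159-123062211, minus strand): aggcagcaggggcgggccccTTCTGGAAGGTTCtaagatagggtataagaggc

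For the unfolded protein response and the integrated stress response, 24 of 27 genes rose (22 under both scalings) and 1 fell. EIF2AK3, the kinase PERK, went from 1.83 and 1.57 to 11.8 and 14.3 (2.93 ± 0.11), and PPP1R15B, which reverses its phosphorylation, rose by 1.41 ± 0.05. HMOX1, heme oxygenase, went from 12.7 and 12.8 to 189 and 205 (3.95 ± 0.06), above control at 76.8 and 72.4. TXNRD1 and GCLC, for thioredoxin and glutathione, rose by 2.28 ± 0.06 and 2.04 ± 0.07, while the NRF2 list as a whole had 14 of 27 higher and 8 lower, with a median of 0.14 (-0.17 with library totals). Metallothioneins MT1X, MT2A and MT1E, which bind zinc, fell by 0.75, 0.70 and 0.52, and MTF1, the zinc-sensing factor of their promoters, rose from 1.49 and 1.301 to 6.09 and 5.81 (2.09 ± 0.09). In the clock list 10 of 20 rose (9 under both scalings) and 6 fell. BMAL1, the core activator, rose from 5.26 and 5.498 to 31.9 and 35.6 (2.65 ± 0.07) and RORA, which activates BMAL1, by 2.97 ± 0.09. PER2 rose by 1.40 ± 0.06 and PER1 fell by 0.62. In the aryl hydrocarbon receptor list 3 of 10 members rose, all 3 by 2-fold under both scalings, and 6 fell. AHR rose from 9.06 and 9.502 to 42.3 and 42.8 (2.20 ± 0.07), and the largest rise of the list was 3.13. The AHR target CYP1A1 was the 1 member that fell 2-fold under both scalings. The glycolytic enzyme HK2 rose by 2.80 ± 0.07, from 2.52 and 2.703 to 17.8 and 18.7.

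Genes of RNA-binding proteins rose more often than they fell. Of 40 hnRNP and other splicing regulators 31 rose (21 under both scalings) and 4 fell, led by PTBP3 (1.71 ± 0.05), RBM39 (1.58 ± 0.06) and SYNCRIP (1.45 ± 0.05). SR proteins and their kinases had 14 of 21 higher, 10 under both scalings, with TRA2A at 1.35 ± 0.05 and SRSF1 at 1.20 ± 0.06. In RNA decay 22 of 41 rose and 10 fell, with a median of 0.20 that turned to -0.10 with library totals. ZFP36, which binds AU-rich elements of cytokine transcripts, fell from 128 and 125 to 60.4 and 55.5 (-1.13 ± 0.05), and ZC3H12A, an endonuclease of such transcripts, fell by 0.69. Among families defined by symbol, 166 of 302 zinc finger (ZNF) genes rose and 67 fell, with a median of 0.36 (0.05 with library totals), and 18 of 29 Mediator subunits rose (13 under both scalings). In the other direction 37 of 47 genes for complex I of the respiratory chain fell and 1 rose, with a median of -0.27, and 38 of 73 mitochondrial ribosomal proteins fell. Cytosolic ribosomal proteins mostly were not called (74 of 92).

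Change also varied with the length of the transcript and of the gene. Over 10 bins of effective transcript length, the median log2 fold change with active photolyase was -0.15 in the shortest (median 643 nt), 0.13 in the eighth (4072.5 nt) and 0.11 in the longest (7391 nt), or -0.46, -0.18 and -0.19 with library totals. The share of genes 2-fold higher under both scalings was 4.89% in the shortest bin, 15.5% in the ninth and 12.985% in the longest, and the share 2-fold lower went from 3.12% to 0.337%.

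Gene span was added after the data were seen. This span, from the first to the last base of the gene in GENCODE 29, was known for 11663 genes, which were divided into 10 bins of equal size. The median log2 fold change with active photolyase was -0.15 in the bin of the shortest genes (median span 3.2 kb), 0.08 in the fifth bin (25.6 kb) and -0.27 in the bin of the longest (220 kb), where 55.9% of genes were lower. Library totals lowered each of these by about the shift given above, to -0.46, -0.23 and -0.57. Across genes, which are not independent replicates, span and change were almost unrelated in rank (Spearman's rank correlation 0.02 over 11663 genes). The comparisons with control, which share libraries with this one and with each other, ran differently over the same bins. UVC over control went from 0.45 in the shortest to -0.29 in the eighth and -0.15 in the longest bin, and active photolyase over control went from 0.29 to -0.37. The share of genes 2-fold higher under both scalings rose from 5.06% in the shortest bin to 12.95% in the eighth and ninth and was 8.997% in the longest, while the share 2-fold lower went from 4.54% to 0.686%. Genes with 2-fold rises had a median span of 41.9 kb and those with 2-fold falls 9.79 kb, against 30.03 kb for all genes.

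**Figure D5:**
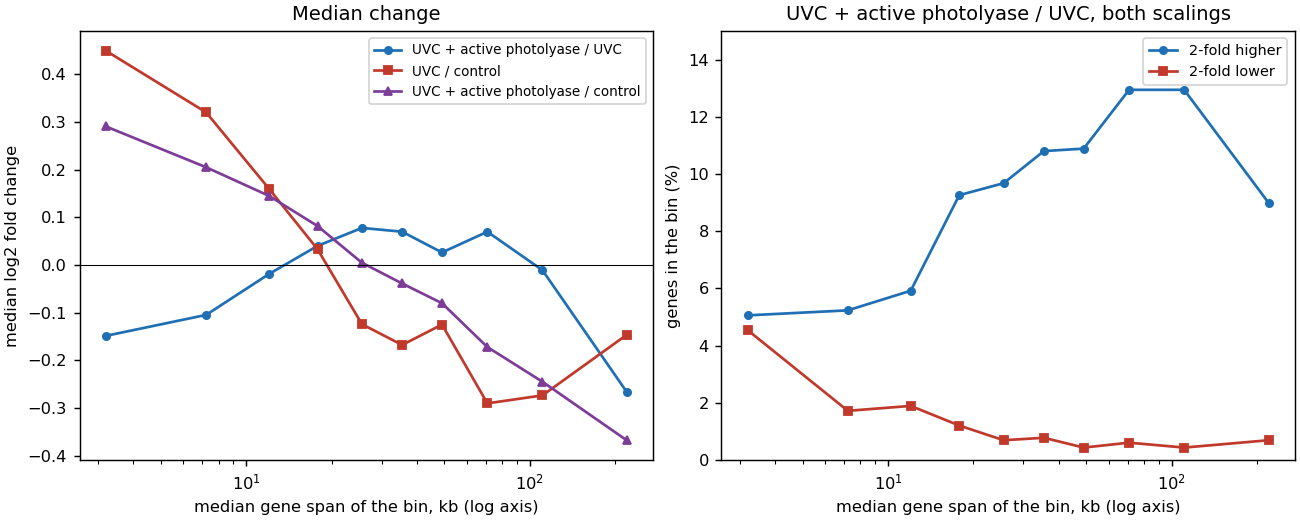
Change by gene span. Both x axes give the median span of 10 bins of about 1166 genes in kb on a log axis. The left panel plots the median log2 fold change of each bin in 3 comparisons that share libraries, and the right panel the percentage of genes at least 2-fold higher or lower with active photolyase than after UVC under both scalings. With active photolyase over UVC the medians are highest in the middle bins and lowest in the longest, at -0.27.

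The longest genes did not move as one. Named by the lists, PARD3 (polarity, 706 kb), STK3 (a Hippo kinase, 572 kb) and PTK2 (344 kb) were lower with active photolyase than in either other group. PARD3 held 6.06 and 6.08 scaled cRPKM with active photolyase, 9.302 and 9.41 with UVC alone and 10.5 and 10.2 without either, a change from UVC of -0.62 ± 0.05 and from control of -0.77 ± 0.05. STK3 held 8.69 and 8.99, 12.2 and 13.2 and 13.9 and 13.7 in the same order, a change from UVC of -0.52 ± 0.06 and from control of -0.65 ± 0.06. PTK2 held 13.5 and 14.3, 19.1 and 19.1 and 28.999 and 29.02, a change from UVC of -0.46 ± 0.05 and from control of -1.06 ± 0.05. In all 3 the group with active photolyase overlapped with neither other group. The share of all genes for which this held was not counted. Other genes over 200 kb, picked here after their values were seen, rose strongly: MAST4 (573 kb), a kinase, went from 1.84 and 1.86 to 22.7 and 22.9 (3.62 ± 0.08) with 40.01 and 48.5 in control, and the scaffold BCAR3 (285 kb) from 6.71 and 7.04 to 69.98 and 71.96 (3.37 ± 0.06) with 149 and 151.

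Some genes in the eighth and ninth bins of span also rose and stayed below control by the same fit. TGFA (107 kb), MACC1 (82.8 kb) and HS3ST2 (102 kb) were at -1.17 ± 0.05, -1.12 ± 0.06 and -1.64 ± 0.05 against control on the log2 scale. Others in the eighth bin did not stay below: CD55 (65.4 kb) was at -0.003 ± 0.06 and GPAT3 (70 kb) at 0.12 ± 0.06 against control. The median against control was -0.17 in the eighth bin and -0.24 in the ninth. The share of genes in these bins that rose and stayed below control was not counted.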

How the data were processed

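RNA from 6 libraries of HaCaT cells was sequenced, with TruSeq libraries per the labels' protocols. The authors deposited read counts and cRPKM per gene, aligned with Bowtie to hg19 per the submitters' processing notes. In the deposited table, cRPKM is an RPKM: the count divided by effective length and library total. How reads were counted, whether by strand and against which annotation, is not given in the sources used here. Counts were fitted with edgeR 4.0.16 (R 4.3.3): TMM factors, 6 libraries, 3 group means, a two-sided quasi-likelihood F test and Benjamini-Hochberg adjustment at 0.05 over the 11858 genes at 1 cRPKM or more in 2 of the 4 libraries compared. SEs were derived from the fold change and F. Calls under both scalings also passed with library totals. Named genes were the 15 largest rises and 15 largest falls among genes with a mean of 5 cRPKM or more in the higher group. These were also called in the same direction under both scalings, with replicate values that did not overlap between the groups. Added to them were up to 3 extremes each way per list, among called members with that mean. The rest were the 10 largest falls and 10 largest rises of UVC over control, and 10 fixed genes. Chosen outside this rule, after their values were seen, were BCAR3, BMP2, BMP4, BMP7, CCNE2, CDH1, CDK12, CDK9, DNAJB1, DUSP6, EGR1, ENSG00000250038, EPGN, FOSL1, FST, GRHL3, HEXIM1, HSF1, HSPA1A, HSPA1B, ID2, IL1B, IL6, JUND, LCE1C to LCE1F, MAFK, MAST4, MEOX1, MMP1, MMP9, MYC, NPIPB6, NUTM2G, PLAUR, SMAD7, SPRR2A, TGFB1, TGFB2, TGFB3 and WEE1. Members and lists were chosen with earlier results of these data known. The fit was tested on simulated counts. The plan was to use gene span only with an annotation of the files' build. Spans here depart from it: they come from GENCODE 29 (GRCh38), matched by gene ID, while the files use hg19. Alternatives used DESeq2 1.42.0, limma 3.58.1, other filters and fits without 1 library. Some items are not reported here.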

Additional observations from a re-analysis of the deposited data

How the results depend on the processing

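The balance of higher and lower calls depended on the scaling. DESeq2 called 4511 genes higher and 4344 lower, limma on log2(cRPKM + 1) 3289 and 6979, on log2(cRPKM + 0.1) 3280 and 6927, median-centred limma 3678 and 6345, and edgeR on the 4 libraries alone 4732 and 4921. With no filter on low values 5476 and 4826 were called, and 340 genes were 2-fold lower in place of 163. The count of genes 2-fold lower was 803 with library totals alone and 691 in limma on log2(cRPKM + 0.1), where 1084 and 1055 were 2-fold higher. A minimum of 5 cRPKM left 3307 and 3915. Leaving out 1 library at a time gave 4279 to 4736 higher, 4156 to 4915 lower, 8503 to 9651 called in all, 1082 to 1095 2-fold higher and 164 to 220 2-fold lower.

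Some small changes turned direction. With library totals DDB1 was at -0.16, PCNA -0.022, SLC30A1 -0.032, ENSG00000187990 -0.094, CRY1 -0.10 and CRY2 -0.26. In limma on log2(cRPKM + 1) the same genes were at -0.16, -0.022, -0.031, -0.10, -0.080 and -0.18, and on log2(cRPKM + 0.1) at -0.16, -0.023, -0.032, -0.10, -0.094 and -0.25. Median-centred limma put DDB1 at -0.069, ENSG00000187990 at -0.0087 and CRY2 at -0.090. Without 1 library CRY2 ranged from -0.013 (without UVC with active photolyase replicate 2) to 0.078. Between TMM factors and library totals the median shift was -0.31. Limma without centring used deposited cRPKM with no TMM factor, so these fits share the scaling by library totals. For the other fits the cause was not tested.

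With a replicate block 9427 genes were called, 4660 higher and 4767 lower, and 1083 and 163 by 2-fold. With 2 pairs only, and a correlation of same-numbered deviations of 0.183 between UVC and active photolyase, the numbers were not taken to pair the libraries. With 2 libraries a group, the spread of each gene rests on 3 residual degrees of freedom. The fit added a prior worth 10 degrees of freedom, taken from all genes tested.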
